A study of Bos taurus with 16 samples.

Results

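ATP6, ATP8 and CYTB are 3 protein-coding genes of the mitochondrial genome, and their transcripts were followed here in mammary fat pads that came from Holstein heifers at birth. They were taken as 3 of 37925 transcripts in the deposited tables. The choice began with a run of 13 consecutive transcripts that had been selected on their measured abundance, each with over 0.05% of counts on average. Within that run the transcripts of 681, 201 and 1140 nt were kept, since these are the lengths of ATP6, ATP8 and CYTB in the RefSeq gene table of assembly ARS-UCD2.0. The names rest on length alone. The files give only Ensembl transcript IDs (ENSBTAT00000060539.1, ENSBTAT00000060553.1 and ENSBTAT00000060567.1, in that order), and the table paired 0 of the 37925 IDs with a gene. Lengths of 681, 201 and 1140 nt occur 12, 12 and 26 times among all transcripts, but once each within the run. The least abundant transcript of the run averaged 0.0858% of counts. In CPM, counts scaled to a common library total, the transcripts listed just before and just after the run averaged 0.363 and 0.

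The calves had been carried under heat stress or under cooling (labelled HT and CL in the sample titles) for 54 ± 5 days at the end of gestation, in summer in a subtropical climate. Both groups were female Holsteins sampled at birth, and the cooled calves were the comparison group. The titles do not spell out HT; it was read as the heat-stressed group because the series text names no other. Each group has 8 listed libraries, although the text gives 6 calves a group, and no library is tied to a calf. The files of cooled replicates 1 and 2 were identical and were counted as 1 sample, which left 7 cooled and 8 heat-stressed libraries of 40573338 to 55317188 estimated counts. The tissue label could not be checked against marker genes because the IDs carry no names.

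Mitochondrial DNA is transcribed as long precursors from both strands, which are then cut into separate messenger RNAs. ATP8 and ATP6 overlap and remain together on a single messenger RNA, between COX2 and COX3, and both encode membrane subunits of ATP synthase. ATP6 forms part of the path by which protons cross the inner membrane, and ATP8 is a small subunit beside it. CYTB follows ND6 on the genome and encodes cytochrome b, the mitochondrially encoded subunit of complex III. Complex III passes electrons from ubiquinol to cytochrome c and moves protons, so the 3 genes serve the steps that build and use the proton gradient. The mammary fat pad is the adipose and connective tissue into which the ducts of the gland grow.

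The 3 transcript lengths are whole numbers of codons, namely 227 for ATP6, 67 for ATP8 and 380 for CYTB with the stop codon included. All 3 had whole-number counts in 15 of 15 libraries (within 0.0005). The quantifier therefore divided no reads between these and other listed transcripts in a way that left a fraction. Reads from the stretch shared by ATP8 and ATP6 still cannot be assigned with certainty to either. The use of strand in counting is not given in the sources used here, so reads from the opposite strand cannot be told apart either.

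The high abundance of the 3 transcripts was fixed by the way the run was chosen, and their levels are given as a description. CYTB averaged 1.73% of counts and ranked between 3 and 10 of all transcripts in the single libraries. ATP6 averaged 1.45% and ranked between 4 and 12. ATP8, the shortest, averaged 0.225% and ranked between 12 and 110. Counting error was small beside these levels. The lowest count of any of the 3, 55272 for ATP8 in heat-stressed replicate 4, gave 0.128% of that library with a Wilson 95% interval of 0.126% to 0.129%. Such intervals cover counting error only, since PCR copies are not independent molecules.

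Levels of the 3 transcripts were set against each other per kilobase of full transcript length within each library. ATP6 had more reads per kilobase than CYTB in 15 of 15 libraries, by a median of 1.32-fold and a range of 1.07-fold to 2.22-fold. ATP6 also exceeded ATP8 in 15 of 15, by a median of 1.81-fold and a range of 1.68-fold to 4.88-fold. CYTB exceeded ATP8 in 14 of 15 libraries, and the exception was heat-stressed replicate 6 (0.758-fold). The direction against ATP8 depends on the length used. Over effective length (10.012 nt for ATP8, 432 nt for ATP6 and 891 nt for CYTB) ATP8 was the higher. ATP8 and ATP6 also lie on a single messenger RNA, so their values per kilobase are not amounts of separate RNAs. In CPM per kilobase, cooled libraries had 26360 ± 11813 for ATP6, 19134 ± 10301 for CYTB and 13384 ± 7717 for ATP8 (SD, n = 7). Heat-stressed libraries had 16764 ± 5177, 11707 ± 2258 and 9297 ± 3181 in the same order (SD, n = 8). The order of the means was the same in both groups. In the cooled group the gap between neighbours in that order was smaller than either SD, so the order rests on the within-library ratios. The place of ATP8 in it rests on the use of full length as well.

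Among the 13 transcripts of the run, ATP6 stood between places 3 and 5 per kilobase in the single libraries. CYTB stood between places 5 and 7 and ATP8 between places 5 and 10. COX3 (cytochrome c oxidase) exceeded ATP6 per kilobase in 15 of 15 libraries, where ATP6 over COX3 ran from 0.346 to 0.907. COX2 was close to ATP6, which was the higher in 8 of 15. ATP6 exceeded ND4 (a complex I subunit) in 15 of 15, by 2.56-fold to 4.67-fold. CYTB exceeded ND6, its neighbour on the genome, in 15 of 15 libraries by 3.89-fold to 11.2-fold.

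The deposited TPM, which divide by an effective length, reverse part of that order. The effective length was 10.012 nt for ATP8, against 432 nt for ATP6 and 891 nt for CYTB. In cooled replicate 1, ATP8 thus took 17.9% of TPM, ATP6 2.41% and CYTB 1.51%. Over the 15 libraries ATP8 took 8.44% to 29.8% of TPM. Counts were therefore used for all 3.

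The first comparison was between heat-stressed and cooled gestation. All 3 transcripts had lower mean levels in heat-stressed libraries, and none of the differences passed the threshold over the whole table. ATP6 ran from 7488 CPM in cooled replicate 4 through a median of 16749 to 31478 in cooled replicate 7. In heat-stressed libraries it ran from 8102 CPM in replicate 3 through a median of 10016 to 18327 in replicate 6. The groups overlapped: the cooled median exceeded 7 of the 8 heat-stressed values, all but that of replicate 6. The means were 17951 ± 8044 CPM (SD, n = 7) and 11416 ± 3526 CPM (SD, n = 8). The fitted log2 fold change of ATP6 was -0.82 ± 0.28 (standard error; 0.567-fold, 95% interval 0.374-fold to 0.861-fold), and edgeR's quasi-likelihood test with Benjamini-Hochberg adjustment over all transcripts gave an adjusted p of 0.996. In bulk tissue, fewer cells rich in mitochondria and less of this RNA per cell cannot be told apart.

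ATP8 was lowest in a cooled library. It ran from 1040 CPM in cooled replicate 6 and 1176 in replicate 4, through a median of 2464, to 5211 in replicate 7. Heat-stressed libraries ran from 1275 CPM in replicate 4 through a median of 1641 to 3217 in replicate 6. Again the cooled median exceeded 7 of the 8 heat-stressed values, whose whole range fell inside the cooled one. The means were 2690 ± 1551 CPM (SD, n = 7) and 1869 ± 639 CPM (SD, n = 8). The fitted log2 fold change was -0.70 ± 0.33 (standard error; 0.617-fold, 95% interval 0.377-fold to 1.01-fold; edgeR adjusted p = 0.996). Without cooled replicate 6 it was -0.84.

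Of the 3, CYTB had the lowest coefficient of variation among heat-stressed libraries. Cooled libraries ran from 7618 CPM in replicate 4 through a median of 19351 to 44740 in replicate 7, a 5.87-fold span. Heat-stressed libraries ran from 10185 CPM in replicate 4 through a median of 13575 to 17951 in replicate 1, a 1.76-fold span. The cooled median exceeded all 8 heat-stressed values, yet each of them was above the lowest cooled library. The means were 21813 ± 11743 CPM (SD, n = 7) and 13346 ± 2575 CPM (SD, n = 8), coefficients of variation of 53.8% and 19.3%. For ATP6 these coefficients were 44.8% and 30.9%, and for ATP8 57.7% and 34.2%. No test of this difference in spread was made. The fitted log2 fold change of CYTB was -0.86 ± 0.32 (standard error; 0.549-fold, 95% interval 0.346-fold to 0.872-fold; edgeR adjusted p = 0.996).

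**Figure D1:**
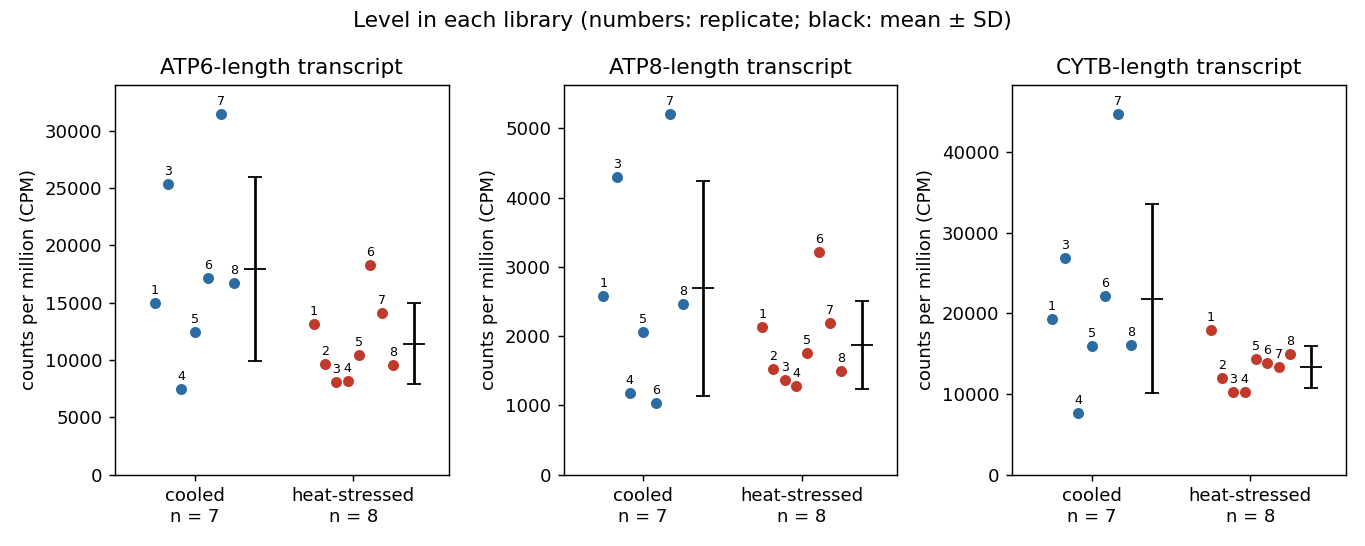
CPM (vertical axes, starting at 0) of ATP6, ATP8 and CYTB in the 7 cooled (blue) and 8 heat-stressed (red) libraries; numbers are replicate numbers and black bars show the mean ± SD. Cooled replicate 7 was the highest library for each transcript, and cooled replicate 6 was high or middling for ATP6 and CYTB but lowest for ATP8.

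In edgeR's quasi-likelihood test 0 of the 3 transcripts had an adjusted p under 0.05, where 0% of the 19180 tested transcripts did. DESeq2 called 0 of the 3 and 58 of the 24120 transcripts to which it gave an adjusted p (0.24%), and limma-voom called 0 of the 3 and 0 of 19180. At an unadjusted p under 0.05 there were 2 of 3, ATP6 and CYTB, against 2.27% of all tested transcripts (1.29% were lower at that p). Without cooled replicate 7 the count was 1 of 3, against 1.9% of all tested. It was 3 of 3 when cooled replicate 4 (4.65% of all tested), cooled replicate 6 (1.85%) or heat-stressed replicate 6 (10.8%) was left out, and the share of all transcripts was higher as well in the first and last of these. The cooled median exceeded every heat-stressed library for 1 of 3, CYTB, against 0.683% of all tested transcripts. For none of the 3 were the ranges of the groups apart, against 0.0261% of all. These counts are a description, because the run of 13 had been taken up with its lower level in heat-stressed libraries already known and its members vary together. The median log2 fold change was -0.82 over the 3 and -0.058 over all tested transcripts.

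Cooled replicate 7, the highest library for each of the 3, weighed most on these differences. Without it the log2 fold changes were -0.55 for ATP6, -0.37 for ATP8 and -0.51 for CYTB. Cooled replicate 4, with the lowest ATP6 and CYTB of all libraries, had the opposite weight, and without it they were -0.91, -0.79 and -0.96. Adjusted p-values in edgeR ran from 0.444 to 1.00 over all 15 single omissions.

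The other 10 transcripts of the run encode, by the same match of lengths, 7 subunits of complex I and 3 of cytochrome c oxidase. None of the 10 passed the adjusted threshold, against 0% of all tested transcripts. At an unadjusted edgeR p under 0.05 there were 6 of 10, against 2.27% of all tested (1.29% were lower at that p). This count too is a description, because the lower level of the run was already known and its members vary together. The 7 ND transcripts had a median log2 fold change of -0.99 and the 3 COX transcripts one of -0.43. CYTB, ATP6 and ATP8 lay between most of the ND transcripts and the COX transcripts, with ND3 (-0.39) on the side of the latter. Summed, ATP6, ATP8 and CYTB made up 4.25% ± 2.10 of all counts in cooled libraries (SD, n = 7), and the sum was 2.66% ± 0.583 under heat stress (SD, n = 8). Of the gap between groups in the share of the whole run, 26.9% fell to these 3. They made up 18.6% ± 3.03 of the run in cooled libraries (SD, n = 7) and 16.7% ± 2.96 under heat stress (SD, n = 8).

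**Figure D2:**
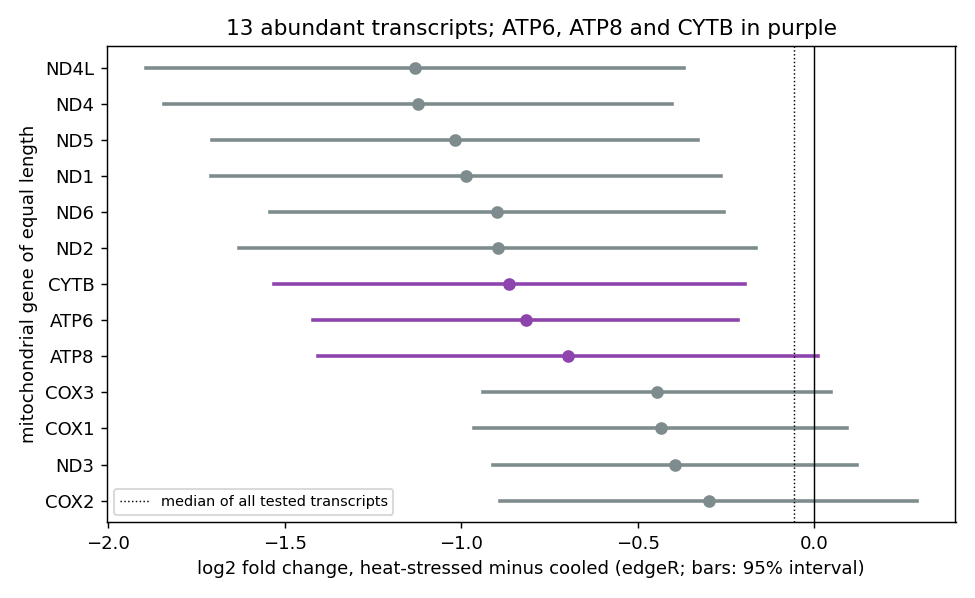
Fitted log2 fold change, heat-stressed minus cooled (horizontal axis; points, with 95% intervals as bars), for the 13 transcripts of the run, named by equal length. ATP6 (-0.82), ATP8 (-0.70) and CYTB (-0.86) in purple lie further from 0 than the ND3 and COX values and nearer to 0 than the other ND values, with wide overlap of the intervals; the dotted line is the median of all tested transcripts (-0.058).

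The next comparison asked whether each of the 3 moved apart from the rest of the run. For this the log2 ratio of its counts to the summed counts of the other 10 was taken in each library, which cancels library size and scaling. ATP6 had a mean log2 ratio of -3.36 ± 0.21 in the cooled group (SD, n = 7), compared with -3.58 ± 0.43 under heat stress (SD, n = 8). Heat-stressed replicates 1, 2, 3, 4, 5 and 8, 6 of the 8, lay below every cooled library, from -3.93 to -3.59, where the lowest cooled value was -3.54. Heat-stressed replicates 6 (-2.68) and 7 (-3.24) lay among or above the cooled libraries. The difference of -0.22 had an exact two-sided permutation p of 0.236 (0.590 adjusted over 5 ratios), so it did not pass the threshold. Among the 15 single omissions, the largest ATP6 difference was -0.35 (exact permutation p = 0.0122, adjusted 0.0612). It came from leaving out heat-stressed replicate 6, the highest library of its group. Every other single omission gave a difference between -0.27 and -0.16, with exact permutation p from 0.169 to 0.428.

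CYTB relative to the other 10 had -3.13 ± 0.35 in the cooled group (SD, n = 7), compared with -3.33 ± 0.16 under heat stress (SD, n = 8). The difference of -0.20 had an exact permutation p of 0.169 (adjusted 0.590), and the cooled median exceeded 7 of 8 heat-stressed values. The CYTB difference depended on cooled replicate 7, the highest library at -2.46, without which it was -0.090 (exact permutation p = 0.378). At the other end of the 15 single omissions it was -0.27, without cooled replicate 8 (exact permutation p = 0.0480, adjusted 0.240). ATP8 had -6.19 ± 0.60 and -6.20 ± 0.46, a difference of -0.019 (exact permutation p = 0.949, adjusted 0.949). That value turns on cooled replicate 6 (-7.44), and without it the ATP8 difference was -0.23. By these tests none of the 3 was shown to move differently from the rest of the run.

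**Figure D3:**
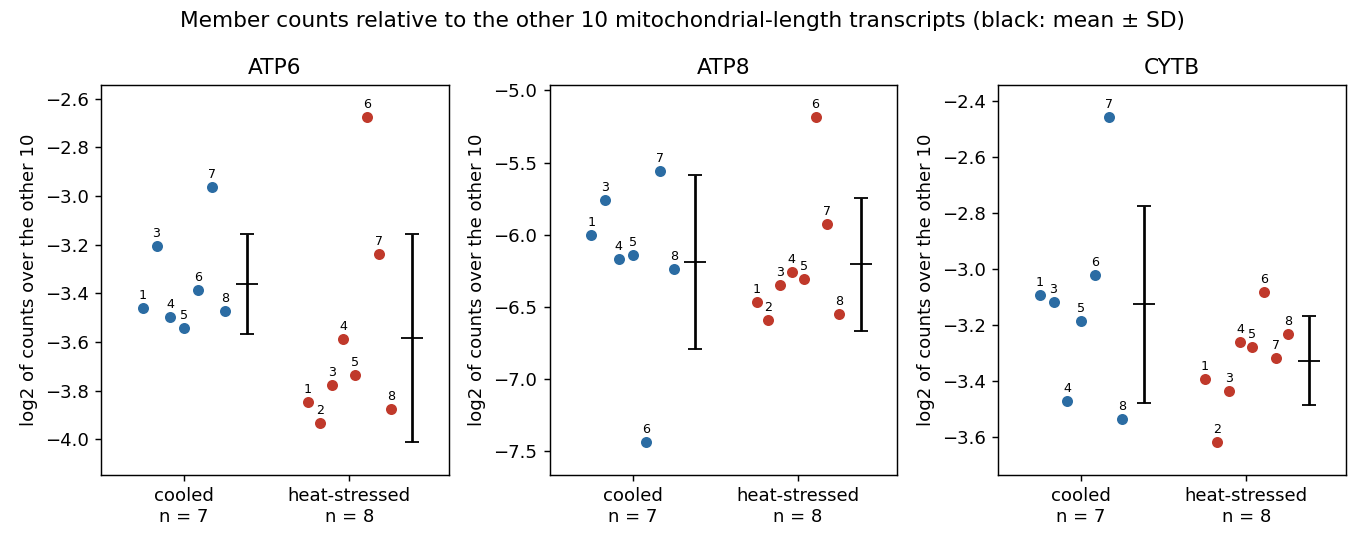
Log2 ratio of the counts of ATP6, ATP8 and CYTB to the summed counts of the other 10 transcripts of the run (vertical axes), by library, with the mean ± SD in black. For ATP6, 6 of 8 heat-stressed libraries lie below all 7 cooled libraries while replicates 6 and 7 do not; for ATP8, cooled replicate 6 stands alone at -7.44.

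ATP8 and ATP6, which share a messenger RNA, were then compared with each other within libraries. ATP8 counts were a near-fixed fraction of ATP6 counts in 14 of the 15 libraries, from 14.7% in cooled replicate 8 to 17.6% in heat-stressed replicate 6, with a median of 16.4%. In cooled replicate 6 the fraction was 6.05%. On the log2 scale the 14 libraries had an SD of 0.070, with cooled replicate 6 left out for its low fraction. Ratios of the other transcripts of the run to ATP6 had SDs from 0.23 (ND4) to 0.57 (ND3) in the same 14. Over all 15 libraries the SD for ATP8 was 0.375, inside the range of the others, from 0.255 (ND4) to 0.551 (ND3). The group difference in the ATP8 to ATP6 ratio was 0.20 (exact permutation p = 0.363, adjusted 0.604). It came from cooled replicate 6: without that library it was -3.33e-05 on the log2 scale (exact permutation p = 0.999).

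Cooled replicate 6 was low in ATP8 but not in the transcripts around it. It had 57512 ATP8 counts, 0.104% of its total with a Wilson 95% interval of 0.103% to 0.105%. Its ATP6 level of 17190 CPM was the fifth from the lowest of the 7 cooled libraries, as were its CYTB level of 22173 CPM and its ND4L level of 1333 CPM. ND4L is the next shortest of the run, at 297 nt. Transcripts under 300 nt outside the run summed to 935 CPM there, against 781 to 1057 CPM in the other cooled libraries. Each of the 12 other transcripts of the run ranked between the third and the fifth from the lowest of the 7 there.

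CYTB and ATP6 kept a looser relation. CYTB counts were a median of 127% of ATP6 counts, from 75.4% in heat-stressed replicate 6 to 156% in heat-stressed replicate 8. The log2 ratio was 0.24 ± 0.22 in the cooled group (SD, n = 7), compared with 0.26 ± 0.34 under heat stress (SD, n = 8), a difference of 0.021 (exact permutation p = 0.894, adjusted 0.949). The second heat-stressed library with less CYTB than ATP6 was replicate 7, at 94.8%, and cooled replicate 8 was at 95.8%.

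**Figure D4:**
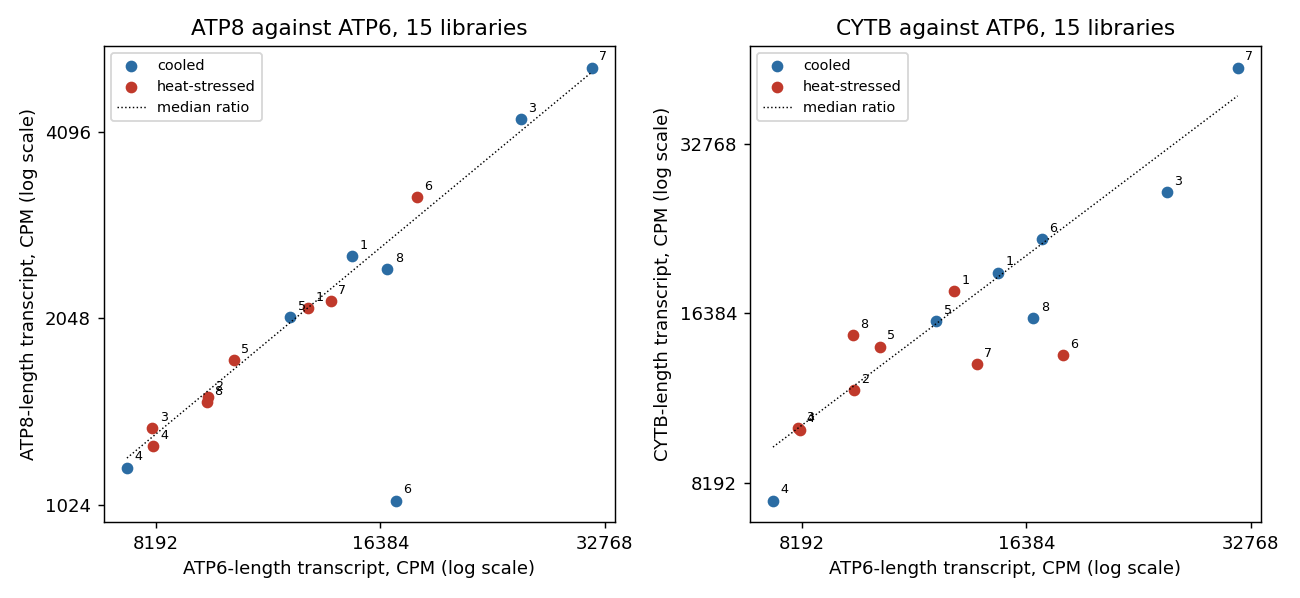
CPM of ATP8 (left) and CYTB (right) against ATP6, both axes on a log scale, in 7 cooled (blue) and 8 heat-stressed (red) libraries numbered by replicate; the dotted line marks the median ratio. ATP8 follows the line in 14 libraries and falls below it in cooled replicate 6 (6.05% of ATP6 counts). CYTB scatters more widely than ATP8 does in those 14, and is lowest relative to ATP6 in heat-stressed replicate 6 (75.4%).

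Transcripts with the most similar pattern across the 15 libraries were sought among all tested transcripts by the Pearson correlation of log2 CPM. These values are descriptions, and share library depth and scaling. The pattern of ATP6 was most like those of ND4 (r = 0.974), ND2 (r = 0.959) and ND1 (r = 0.959), where the median over all tested transcripts was -0.0024. Without the 2 libraries farthest from the ATP6 median these were 0.954, 0.975 and 0.964. The nearest outside the run were ENSBTAT00000016718.5 (1032 nt, mean 5.47 CPM, r = 0.938), in place 6, and ENSBTAT00000002294.6 (1510 nt, 4.22 CPM, r = 0.930). CYTB came in place 8 for ATP6 (r = 0.923, and 0.819 without those 2 libraries).

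CYTB was most like ATP6 (r = 0.923), ND5 (r = 0.917) and COX3 (r = 0.914), and by rank COX3 followed it more closely (Spearman rho = 0.986) than ATP6 did (rho = 0.864). The nearest outside the run were ENSBTAT00000014744.3 (1791 nt, 31.8 CPM, r = 0.865) in place 9 and ENSBTAT00000087434.1 (3511 nt, 0.656 CPM, r = 0.861). Within heat-stressed libraries alone ATP6 and CYTB had r = 0.525 (n = 8), and 0.784 without replicate 6. Within cooled libraries they had r = 0.978 (n = 7). ATP6 and COX1 had r = 0.965 within the cooled group and 0.0757 within the heat-stressed group, but 0.731 there without replicate 6. The low value thus rests on that library, in which ATP6 was the highest and COX1 the lowest of the heat-stressed group.

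For ATP8 the list was led by transcripts outside the run, ENSBTAT00000008894.5 (2137 nt, 42.7 CPM, r = 0.901), ENSBTAT00000042733.4 (2779 nt, 2.20 CPM, r = 0.889) and ENSBTAT00000046599.3 (2323 nt, 101 CPM, r = 0.886). ATP6 stood in place 12 (r = 0.858). This order came from 1 library. Without cooled replicate 6, ATP8 was most like ATP6 (r = 0.996), ND4 (r = 0.983) and ND4L (r = 0.969), over 14 libraries.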

How the data were processed

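RNA sequencing tables of 16 libraries of mammary fat pad were analysed. Per the labels' protocols, a Qiagen RNeasy Plus kit was used for RNA and the NEBNext Ultra II RNA kit for libraries. Build ARS-UCD1.2, STAR 2.7.10a, Trimmomatic 0.40, cutadapt, FastQC 0.11.9, DESeq2 1.38.3 and R 4.3.1 appear in the submitters' processing notes without roles. Neither the quantifier nor the release of the annotation is given in the sources used here. The deposited estimated counts are per transcript, and the deposited TPM divide them by effective length, which was the same in all 16 files. Of 120 file pairs, 1 was identical (cooled replicates 1 and 2).

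Estimated counts were rounded and fitted with edgeR 4.0.16 in R 4.3.3 (quasi-likelihood F test, TMM scaling, filterByExpr, robust, no covariates, two-sided, Benjamini-Hochberg over the 19180 tested transcripts, threshold 0.05). All 3 transcripts passed the filter. The standard error is the absolute log2 fold change over the square root of F. Log2 CPM for correlations used a prior count of 2. Ratios of counts were tested exactly over all 6435 assignments of the 15 libraries and adjusted over 5 ratios. The edgeR step was run on simulated data as a check of the code only, and nothing is concluded from it about power. Alternatives were DESeq2 1.42.0, limma-voom (limma 3.58.1), 4 other scalings, 2 other filters, a replicate block, both identical files and each library left out; plots used matplotlib 3.10.9. The transcripts named are the 3, the other 10 of the run, and by correlation the 3 most alike for each and the 2 most alike outside the run. The 3 transcripts, these lists and the tests were chosen with earlier results of these data known. Lists of nuclear subunits and cell type markers were not tested, because IDs could not be paired with symbols. P-values rest on the spread between libraries, since no label ties a library to a calf.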

Additional observations from a re-analysis of the deposited data

Results flagged for a closer look

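Dixon's test for a single distant library was applied to 16 groups of values, 3 transcripts and 5 ratios in each of 2 groups, and 3 showed a library beyond the 95% limit, a rate to be read beside the 1 in 20 that chance gives. The log2 ratio of ATP8 to ATP6 was -4.05 in cooled replicate 6, with the next cooled library at -2.77. The log2 ratio of ATP8 to the other 10 transcripts of the run was -7.44 in the same library, with the next at -6.24; both values come from the same low ATP8 count. The log2 ratio of ATP8 to the other 10 was -5.19 in heat-stressed replicate 6, the highest of its group, with the next at -5.93.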

How the results depend on the processing

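Some choices were made after the data were seen. These were the alternatives without cooled replicate 4 and heat-stressed replicate 6 together and with the shared file as number 2 in the block. The correlations and the SDs of ratios without 1 library were also chosen then. No alternative brought any of the 3 transcripts past the adjusted threshold in 27 settings each, with adjusted p from 0.183 (both libraries left out) to 1.00. At an unadjusted p under 0.05 the count was 2 by the design as fixed (2.27% of all transcripts). It was also 2 in 21 of the 27 settings. In these, the share of all transcripts ran from 1.34% (without heat-stressed replicate 4) to 10.2% (no filter on low counts). The count was 1 in 2 settings, without cooled replicate 7 (1.9% of all transcripts) and with the replicate block (2.67%). In the block CYTB had an unadjusted edgeR p of 0.0806. The count was 3 in 4 settings. These left out cooled replicate 4 (4.65% of all transcripts), cooled replicate 6 (1.85%), heat-stressed replicate 6 (10.8%), or the first and last of these together (15.6%). All log2 fold changes stayed negative. Leaving out each library gave -0.91 to -0.55 for ATP6, -0.84 to -0.37 for ATP8 and -0.96 to -0.51 for CYTB. With the replicate block the values were -0.66, -0.46 and -0.64. To look for pairing, the mean of each transcript in its group was first subtracted from log2 CPM. What remained correlated at -0.211 to 0.127 between same-numbered cooled and heat-stressed libraries over 7 pairs. Of these, 2 were over 0.1 and 1 of 7 was closest to its own number, so the numbers were not taken to pair the libraries. Scaling by counts outside the run gave -0.81, -0.69 and -0.87. Library-size scaling gave -0.65, -0.53 and -0.71, and moved the median of all transcripts from -0.058 to 0.046. With both libraries left out the values were -0.99, -0.89 and -0.93. No ratio passed the adjusted threshold in any of its 19 alternatives. For the ATP8 to ATP6 and CYTB to ATP6 ratios these include reads per effective length, which was the same in all files. That alternative could not differ from the result by the design as fixed. As a difference of medians the ATP8 to ATP6 ratio was -0.042 and the CYTB to ATP6 ratio -0.024, opposite in sign to the differences of means. Taken over counts outside the run, the differences were -0.69 for ATP6, -0.48 for ATP8 and -0.67 for CYTB (exact permutation p = 0.0592, 0.237 and 0.0735). Leaving out each library moved the ATP8 to ATP6 difference from -3.33e-05 to 0.25, ATP8 over the other 10 from -0.23 to 0.086, CYTB to ATP6 from -0.034 to 0.12, ATP6 over the other 10 from -0.35 to -0.16 and CYTB over the other 10 from -0.27 to -0.090. The cause was not tested beyond the libraries named. The counts of the 3 transcripts were at least 55272 a library.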
